A study of Mus musculus with 22 samples.

Results

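Collagen genes were examined in mouse embryos and fetal livers that were wild-type or homozygous for a mutation in *Rlf*, which encodes a zinc finger protein. They were chosen by symbol alone, as genes on an autosome named Col, a number, a and a number. This rule took 41 of the 21418 protein-coding autosomal genes of the annotation, and left out 2 collagen genes on chromosome X. RNA-seq counts came from 6 E14.5 livers, 3 of each genotype. Whole genome bisulphite sequencing gave 12 libraries, 2 of each genotype from whole embryos at E10.5 and from livers at E14.5 and at E18.5. All mice were labelled FVB (FVB/NJ in the study's methods), came from the Line3 colony and carried a GFP transgene array, driven by human alpha-globin elements, on both chromosomes, the wild-type controls included. The mutants were *Rlf* MommeD28/MommeD28, an allele from an ENU mutagenesis screen. The E10.5 embryos were all labelled male and the E18.5 livers all female. In E14.5 bisulphite libraries replicate 1 was male and replicate 2 female, and in RNA-seq replicate 3 of each genotype was female. Tissue and stage cannot be told apart between E10.5 embryos and the livers. Sex differs together with them except in E14.5 replicate 1, and between E14.5 and E18.5 livers the share of female samples differs together with stage. H3K4me1 ChIP-seq was not analysed here.

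Collagens are the main structural proteins of the extracellular matrix, built from 3 chains that wind into a triple helix. Fibrillar collagens form cables, type IV collagens form the sheets of basement membranes, and type VI collagens form beaded filaments around cells. FACIT collagens decorate the surface of fibrils, and collagens XV and XVIII (multiplexins) sit at basement membranes. In liver, stellate cells and portal fibroblasts are the classic sources of fibrillar collagen, while endothelial cells and hepatocytes make type IV and XVIII collagen as well. CpG methylation near a gene's start is usually low where CpGs are dense, and gene bodies are usually methylated.

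Stretches of genomic sequence that carry the methylation results are shown first. Every CpG, the unit at which methylation was read, is in capitals, including those with too few reads to count. Of the 7 tiles of 1 kb described below that differed between genotypes, 4 are shown, each by its 250-base piece with the most covered CpGs on the plus strand of mm9. They are the tile with the largest difference, the one with most CpGs, the one called in E14.5 liver and the one that was lower in mutants. The *Col1a1* piece, chr11:94795751-94796000, lies upstream of the gene, and the other 3 pieces lie in introns of *Col6a6* (chr9:105721501-105721750), *Col19a1* (chr1:24592001-24592250) and *Col9a1* (chr1:24226001-24226250).
Col1a1: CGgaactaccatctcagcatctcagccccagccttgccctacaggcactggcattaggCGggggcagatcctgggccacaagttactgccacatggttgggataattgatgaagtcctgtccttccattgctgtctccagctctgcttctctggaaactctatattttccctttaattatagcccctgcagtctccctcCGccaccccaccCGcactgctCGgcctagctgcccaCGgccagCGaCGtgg
Col6a6: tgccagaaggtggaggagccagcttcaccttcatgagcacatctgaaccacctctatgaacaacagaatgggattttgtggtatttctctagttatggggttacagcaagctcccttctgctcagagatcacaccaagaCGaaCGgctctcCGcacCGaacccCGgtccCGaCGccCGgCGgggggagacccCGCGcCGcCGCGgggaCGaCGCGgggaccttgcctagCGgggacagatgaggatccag
Col19a1: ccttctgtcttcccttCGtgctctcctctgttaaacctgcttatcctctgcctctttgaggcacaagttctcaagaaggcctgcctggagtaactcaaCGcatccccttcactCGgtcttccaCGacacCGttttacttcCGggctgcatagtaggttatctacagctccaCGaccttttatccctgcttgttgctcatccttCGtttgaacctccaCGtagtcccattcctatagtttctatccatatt
Col9a1: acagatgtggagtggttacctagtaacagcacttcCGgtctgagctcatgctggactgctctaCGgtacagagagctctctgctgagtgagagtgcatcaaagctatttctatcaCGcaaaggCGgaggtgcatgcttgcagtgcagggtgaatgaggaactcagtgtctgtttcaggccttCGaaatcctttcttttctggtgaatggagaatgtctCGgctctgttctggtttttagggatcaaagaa

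The pieces differ in how their CpGs are spread. The *Col6a6* piece holds 18 CpGs, crowded toward one end, against 8 in the *Col1a1* piece, 9 in the *Col19a1* piece and 6 in the *Col9a1* piece. Of these, 17, 6, 9 and 6 were covered by 6 reads or more in all 12 libraries, in that order. Collagen promoters differ more widely still, and the extremes of the family are shown by the 250 bases before the start of *Col3a1*, a major fibrillar chain, and *Col4a1*, a basement membrane chain. These come from RefSeq on GRCm38.p6, at chr1:45311288-45311537 on the plus strand and chr8:11312827-11313076 on the minus strand, and are written in the direction of transcription.
Col3a1 promoter: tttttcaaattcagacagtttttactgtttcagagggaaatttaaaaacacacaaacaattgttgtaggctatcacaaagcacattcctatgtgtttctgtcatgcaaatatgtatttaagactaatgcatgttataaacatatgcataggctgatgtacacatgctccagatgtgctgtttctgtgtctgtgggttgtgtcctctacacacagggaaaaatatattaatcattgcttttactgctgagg
Col4a1 promoter: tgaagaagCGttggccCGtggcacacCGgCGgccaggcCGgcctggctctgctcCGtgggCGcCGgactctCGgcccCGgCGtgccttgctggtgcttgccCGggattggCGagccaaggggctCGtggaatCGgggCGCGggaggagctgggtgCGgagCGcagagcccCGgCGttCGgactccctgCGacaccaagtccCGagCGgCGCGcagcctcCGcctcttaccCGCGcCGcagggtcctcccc

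The *Col3a1* stretch holds 0 CpGs and the *Col4a1* stretch 31. RefSeq promoters, here 250 bases before to 50 after a start, matched 33 of the 41 genes with 36 promoters. They held a median of 12 CpGs, from 0 to 37, against 7 over all 32851 promoters. The letters GGGCGG, read on both strands, were in 21 of the 36 collagen promoters (58.3%) and in 35.7% of all promoters. TATAAA was in 5 (13.9%, against 13.6% of all) and CCAAT in 12 (33.3%, against 37.4%). A match is a description of letters, and GGGCGG itself contains a CpG.

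RNA-seq libraries held 12928313 to 14621004 counts, and the bisulphite libraries 15.1 to 33.5 reads per reference CpG, with E14.5 livers at 29.7 to 33.5 and the other libraries at 15.1 to 17.2. Lambda DNA was unconverted at 0.0412 to 0.0775%. The E18.5 mutant replicate 1 stood apart, with 65.4% of autosomal CpG reads methylated against 61.2 to 61.6% in the other 3 E18.5 livers. E14.5 wild-type replicate 1 was the lowest of its stage, at 56.3% against 58.4 to 60.2%. *Rlf* itself was not lower in mutants (log2 fold change 0.08 ± 0.07 SE, edgeR adjusted p = 0.646). A point mutation need not change the count, so this does not check the genotype labels.

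Expression in E14.5 liver was compared between genotypes with counts per gene, given scaled to library size (CPM) or, for levels between genes, to library size and exon length (RPKM). The most expressed collagen genes were *Col18a1*, which encodes the precursor of endostatin, *Col3a1*, *Col1a1*, *Col4a1* and *Col1a2*. *Col18a1* stood at 61.4 ± 1.83 RPKM (SD, n = 3) in wild-type livers. *Col3a1* followed at 43.5 ± 5.69 and, well below it, *Col1a1* at 25.7 ± 4.15 and *Col4a1* at 25.1 ± 0.441, which do not differ beyond their spread. *Col1a2*, the partner chain of *Col1a1*, stood at 14.3 ± 3.14, and *Col14a1*, a FACIT chain, at 13.5 ± 0.486, again within their spread. *Col5a1*, whose product helps start collagen fibrils, had 11.6 ± 0.502, *Col4a2* 10.4 ± 0.412, *Col6a1* 9.68 ± 0.843 and *Col5a2* 7.95 ± 1.63 RPKM. All 41 genes together took 1753 to 2035 CPM in wild-type and 1884 to 2397 CPM in mutant livers, ranges that overlap. At each of the 3 replicate numbers, which the labels do not give as pairs, the mutant liver was higher, at 1875 and 2084, 1753 and 1884, and 2035 and 2397 CPM.

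**Figure D1:**
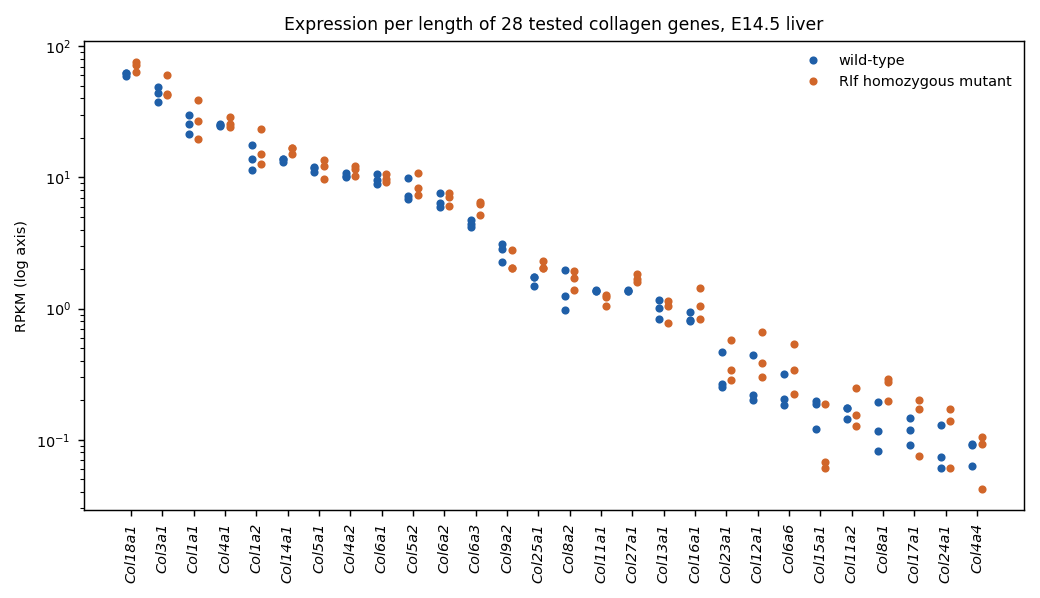
RPKM (log axis) of the 28 tested collagen genes in each of 3 wild-type and 3 *Rlf* mutant E14.5 livers, ordered by mean wild-type level; each point is 1 liver. Levels run from 61.4 RPKM for *Col18a1* to 0.0827 for *Col4a4*, and the genotypes overlap for most genes.

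Marker lists were read beside the collagen genes to see which cell types the livers held. All 15 genes of a mesenchymal and stellate list passed the filter on low counts, led by *Vim* (73.0 RPKM), *Colec10* (21.6) and *Reln* (10.7) in wild-type livers. All 12 endothelial genes passed too, and the cartilage and bone list was near absent, with 2 of 10 genes tested and a summed level of 4.04 to 6.13 CPM. The livers were bulk tissue, so the cells that made each collagen transcript were not measured, and fewer cells of a type cannot be told apart from less RNA per cell. The *Alb* and *Afp* transcripts of hepatoblasts and the *Slc4a1* transcript of erythroid cells exceeded every collagen gene per length. Reads were counted without strand, so counts are uncertain to that extent where a gene overlaps another on the other strand. Among the tested collagen genes these were *Col18a1* (with *Slc19a1*), *Col1a1* (with *Gm17329*), *Col4a1*, *Col4a2*, *Col5a1*, *Col8a2*, *Col12a1* and *Col15a1*.

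Of the 41 genes, 28 passed the filter. The other 13 had 0 to 18 counts in any liver: *Col2a1*, *Col9a1*, *Col9a3*, *Col10a1*, *Col19a1*, *Col20a1* and *Col22a1*, several of them cartilage collagens, and *Col4a3*, *Col5a3*, *Col6a4*, *Col6a5*, *Col7a1* and *Col28a1*. *Col19a1* had 0 counts in 4 livers and 1 in each of the other 2.

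In *Rlf* mutant livers 1 of the 28 tested collagen genes was called higher and 0 lower, where 0.698% of all 14183 genes tested were called higher and 0.691% lower (edgeR quasi-likelihood test, adjusted p under 0.05). DESeq2 also called 1, and 6 of the 28 had an unadjusted p under 0.05. The gene called was *Col6a3*, the long chain of type VI collagen. It had 661, 795 and 806 counts in wild-type livers and 1008, 851 and 1067 in mutant livers, or 4.45 ± 0.260 and 5.98 ± 0.746 RPKM. The 3 mutant livers were all above the 3 wild-type livers, and the log2 fold change was 0.43 ± 0.09 (edgeR adjusted p = 0.0414). The call was lost when any 1 library other than mutant replicate 2 was left out (adjusted p = 0.0657 to 0.153). The other chains of the same filament did not pass: *Col6a1* changed by 0.03 ± 0.08 and *Col6a2* by 0.07 ± 0.10 on the log2 scale, with adjusted p = 0.907 and 0.812 by edgeR.

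*Col14a1* missed the threshold narrowly. Its counts were 1264, 1378 and 1388 in wild-type and 1510, 1472 and 1686 in mutant livers, with no overlap in CPM, and its log2 fold change was 0.26 ± 0.06 (edgeR adjusted p = 0.0557). With replicate number as a block, which pairs livers by their label number, *Col14a1* passed (adjusted p = 0.0223, edgeR) and the calls became *Col6a3*, *Col14a1* and *Col12a1*, which is 3 in place of 1, while 1.85% of all genes were called higher and 1.39% lower in that fit. *Col12a1*, another FACIT chain, had 44, 46 and 96 counts in wild-type and 76, 63 and 144 in mutant livers. In each genotype its replicate 3 was the highest.

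Livers of the 2 genotypes did not overlap in CPM for 7 of the 28 tested genes, where 20.3% of all genes tested did not overlap. *Col18a1*, *Col14a1*, *Col6a3*, *Col25a1*, *Col27a1* and *Col8a1* were higher in all 3 mutant livers, and *Col11a1*, a fibrillar chain, was lower in all 3. *Col18a1* had 5742, 6646 and 5936 counts in wild-type and 6848, 7050 and 6318 in mutant livers, a log2 fold change of 0.20 ± 0.08 that was not called (edgeR adjusted p = 0.249). *Col8a1*, a short-chain collagen, had 13, 9 and 6 counts against 18, 14 and 21, so its log2 fold change of 0.96 ± 0.35 rests on few reads (edgeR adjusted p = 0.232).

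Fold changes of the family lay mostly above 0. Of the 28 genes 23 had a positive log2 fold change, with a median of 0.18, against 7011 of 14183 genes and a median of -0.0017 over all genes tested. Other lists, described below, also lay mostly above 0, with 11 of 15 mesenchymal, 10 of 12 endothelial, 10 of 12 hepatoblast and 8 of 10 processing genes. Among erythroid genes 1 of 9 did, and among mesothelial genes 3 of 6. Without wild-type replicate 3 or without mutant replicate 2 the collagen count was 24 of 28, with a median of 0.27 in each fit. Without mutant replicate 3 it was 15 of 28 with a median of 0.10, and the most expressed fibrillar genes changed sign. *Col1a1* had 2208, 2141 and 2794 counts in wild-type livers and 2268, 1774 and 3618 in mutants, so the female replicate 3 was the highest of each genotype and the groups overlapped. *Col1a2* followed the same order, with 2211, 2105 and 3062 against 2348, 2144 and 4043 counts. *Col3a1* had 4846, 4772 and 5853 against 4663, 4923 and 7154 counts. The log2 fold changes were 0.14 ± 0.19, 0.25 ± 0.19 and 0.15 ± 0.13, with edgeR adjusted p = 0.779, 0.612 and 0.636. Without mutant replicate 3 they were -0.15, -0.05 and -0.03, in a fit that keeps the high wild-type replicate 3. By replicate number *Col1a2* was higher in the mutant each time, at 168.7 and 182.2, 139.1 and 154.7, and 214.8 and 283.8 CPM. *Col1a1* was lower in the mutant at replicate 2 and *Col3a1* at replicate 1. With replicate number as a block *Col1a2* stood at an edgeR adjusted p of 0.0802, still short of the threshold. With sex as a covariate *Col6a3* was again the 1 collagen gene called, and 23 of 28 lay above 0 with a median of 0.17. In that fit 113 of all 14183 genes were called higher and 95 lower. The part of sex in the level of replicate 3 cannot be told apart from replicate number.

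**Figure D2:**
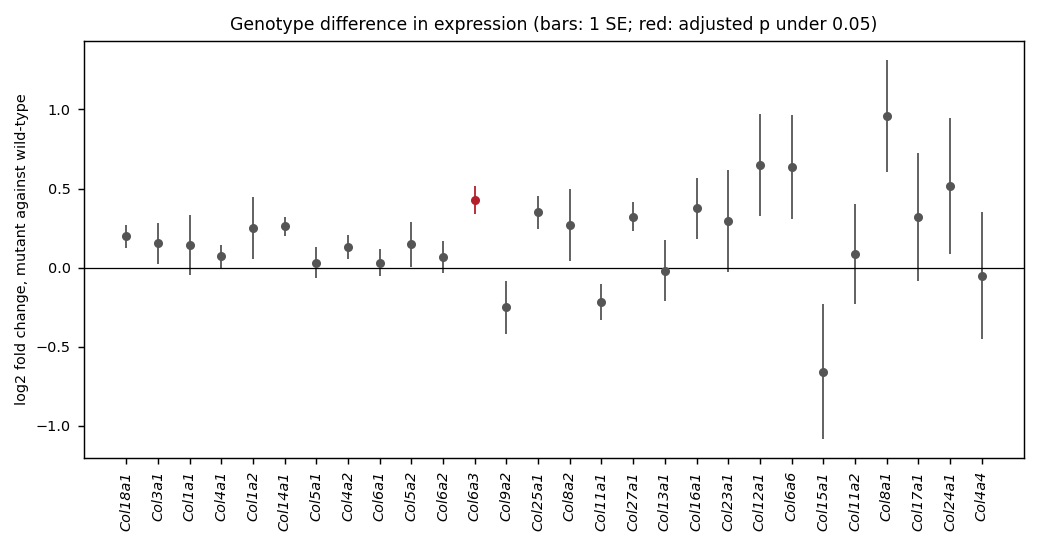
Log2 fold change of the 28 tested collagen genes in *Rlf* mutant against wild-type E14.5 livers, with bars of 1 SE, ordered by wild-type level. *Col6a3* (red, 0.43) is the gene past an adjusted p of 0.05, 23 of 28 points lie above 0, and the bars widen to the right where counts are low.

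Genes that fold, process, break down or bind collagen were followed in the same fit, in which 0.698% of all genes tested were called higher, 0.691% lower, and 2071 of 14183 had an unadjusted p under 0.05. With the replicate block, the higher calls over all lists, cell type markers included, were 16 in place of 6 and the lower calls 1 as before, where 263 of all 14183 genes were called higher and 197 lower. Of 20 tested folding genes 1 was higher and 1 lower. *P4ha1*, a prolyl hydroxylase subunit needed for a stable helix, had 44.9, 48.9 and 46.4 CPM in wild-type and 64.5, 68.0 and 54.8 in mutant livers (log2 fold change 0.42 ± 0.08, edgeR adjusted p = 0.0354). *Plod1*, a lysyl hydroxylase, fell from 99.6, 106.5 and 101.1 to 80.6, 76.0 and 76.0 CPM (log2 fold change -0.40 ± 0.06, edgeR adjusted p = 0.00551). Neither pair of groups overlapped. The most expressed folding genes, *P4hb*, *Ppib* and the collagen chaperone *Serpinh1*, changed by 0.05, -0.08 and 0.05 on the log2 scale and did not pass.

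Of 10 processing genes 1 was called. *Pcolce*, an enhancer of procollagen cleavage, rose from 31.7, 23.1 and 29.9 to 36.9, 41.7 and 41 CPM (log2 fold change 0.50 ± 0.11, edgeR adjusted p = 0.0449). *Bmp1*, the procollagen protease it aids, changed by 0.02 and the crosslinking enzyme *Loxl2* by 0.17, without passing. None of 11 breakdown genes and 10 receptor genes was called (0 and 0), with 4 and 1 at an unadjusted p under 0.05. The breakdown list holds proteases and their Timp inhibitors together. Its top genes were *Mmp14*, *Mmp2* and the inhibitor *Timp2*, and the top receptors *Itgb1*, *Gpr56* and *Gp6*, with log2 fold changes between 0.04 and 0.14. Over the receptor list the median was 0.25 with 9 of 10 above 0. That list summed to 625.7 to 651.9 CPM in wild-type and 690.8 to 699.6 CPM in mutant livers, which do not overlap. *Itgb1* made up most of the sum, at 429.7, 450.6 and 454.2 against 472.3, 481.6 and 486.7 CPM, and did not pass (edgeR adjusted p = 0.43). Over the breakdown list, inhibitors included, the median was 0.07 with 7 of 11 above 0.

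Of 25 other matrix genes 2 were higher and 0 lower, with a median log2 fold change of 0.26 and 22 above 0. *Lamc1*, a laminin chain of basement membranes, rose from 105.4, 106.1 and 117.5 to 143.7, 128.6 and 143.8 CPM (log2 fold change 0.34 ± 0.07, edgeR adjusted p = 0.0351). *Bgn*, a small proteoglycan, rose from 69.9, 68.5 and 73.7 to 82.5, 91.9 and 102.4 CPM (log2 fold change 0.39 ± 0.08, edgeR adjusted p = 0.0344). *Fn1*, fibronectin, missed the threshold at 744.6, 763.3 and 794.2 against 1361, 897.2 and 1059 CPM (edgeR adjusted p = 0.0514). *Sparc* and *Dcn*, both binders of collagen, changed by 0.23 and 0.15 and did not pass. Without wild-type replicate 3 the calls over all lists together went from 6 higher to 0, without mutant replicate 1 to 1, without mutant replicate 3 to 2 and without wild-type replicate 1 to 3. Higher calls over all genes went from 99 to 45, 27, 62 and 35 in the same order. The single lower call, *Plod1*, was lost without mutant replicate 3.

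Markers of the cell types of fetal liver were read beside these genes, and no list was tested as a group. The summed level of the 15 mesenchymal genes was 629.1 to 684.6 CPM in wild-type and 700.5 to 797.0 in mutant livers, which do not overlap. Of these genes 0 were called and 7 had an unadjusted p under 0.05, with a median log2 fold change of 0.20. The most expressed, *Vim*, *Colec10* and *Reln*, had log2 fold changes of 0.23, 0.20 and 0.30. The 12 endothelial genes summed to 467.2 to 519.5 and 510.7 to 567.0 CPM, with 0 called, 7 at an unadjusted p under 0.05 and a median of 0.17. Its most expressed genes, *Lyve1*, *Eng* and *Cdh5*, had log2 fold changes of 0.18, -0.20 and 0.02. The 6 mesothelial genes summed to 142.5 to 153.7 and 165.4 to 169.7 CPM with 0 called, 1 at an unadjusted p under 0.05, a median log2 fold change of 0.03 and 3 of 6 above 0. *Alcam* made up most of that sum, at 116.7, 115.9 and 123.4 against 140.0, 138.2 and 141.5 CPM, while *Upk3b* was lower in all 3 mutant livers (-0.20 ± 0.11, edgeR adjusted p = 0.427) and *Gpm6a* overlapped. Of 12 hepatoblast genes *Trf* was called higher (0.46 ± 0.09), and the list summed to 56570 to 67180 and 69360 to 80410 CPM. The median log2 fold change of that list was 0.11, and among its abundant genes *Alb* had 0.27, with all 3 mutant livers above the wild-type livers, while *Afp* (0.18) and *Apoa1* (0.06) overlapped. Of 5 cholangiocyte genes *Sox9*, also a regulator of cartilage collagen, was called higher, from 2.06, 1.25 and 1.40 to 3.96, 3.54 and 4.77 CPM (log2 fold change 1.39 ± 0.23, edgeR adjusted p = 0.0143). The most expressed genes of that list, *Spp1*, *Krt19* and *Krt7*, had log2 fold changes of 0.87, -0.22 and -0.38 and did not pass, and the list summed to 11.5 to 18.4 CPM in wild-type and 17.2 to 25.2 CPM in mutant livers, which overlap. The 9 erythroid genes had 0 called, 1 at an unadjusted p under 0.05 and a median of -0.12. The part of cell makeup in the collagen values was not tested.

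Methylation near the starts was read within 1 kb of the 5′ end of the gene, as the percent of its CpG reads that were methylated. A CpG counted only if each of the 12 libraries covered it by 6 reads or more. Of the 41 genes 39 had at least 5 such CpGs. *Col3a1* had 1 covered CpG of 10 and *Col28a1* 2 of 4, and neither was tested. *Col4a1* and *Col4a2*, which are transcribed apart from a shared start region, have the same window. Starts ranged widely. In wild-type E14.5 liver the mean was lowest at *Col13a1* (0.560%) and highest at *Col10a1* (70.9%), with 19 genes under 10% and 6 over 50%. Over all 19186 genes tested 56.9% were under 10% and 24.6% over 50%.

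CpG number and methylation ran against each other, with a Spearman rho of -0.84 across the 39 genes, and methylation and RPKM with a rho of -0.49. These genes share libraries and differ in base composition, so the values are descriptions. Among 16 genes with at least 1 RPKM in wild-type liver 11 had a start under 10%, and among 23 genes below that level 8 had. *Col6a3* was an exception among expressed genes, with a start at 60.4 and 61.9% methylated in the wild-type E14.5 livers, and *Col6a1* stood at 46.9 and 49.5%. *Col2a1*, *Col12a1*, *Col13a1*, *Col19a1* and *Col23a1* were the reverse, with starts under 4% methylated and 1 RPKM or less.

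**Figure D3:**
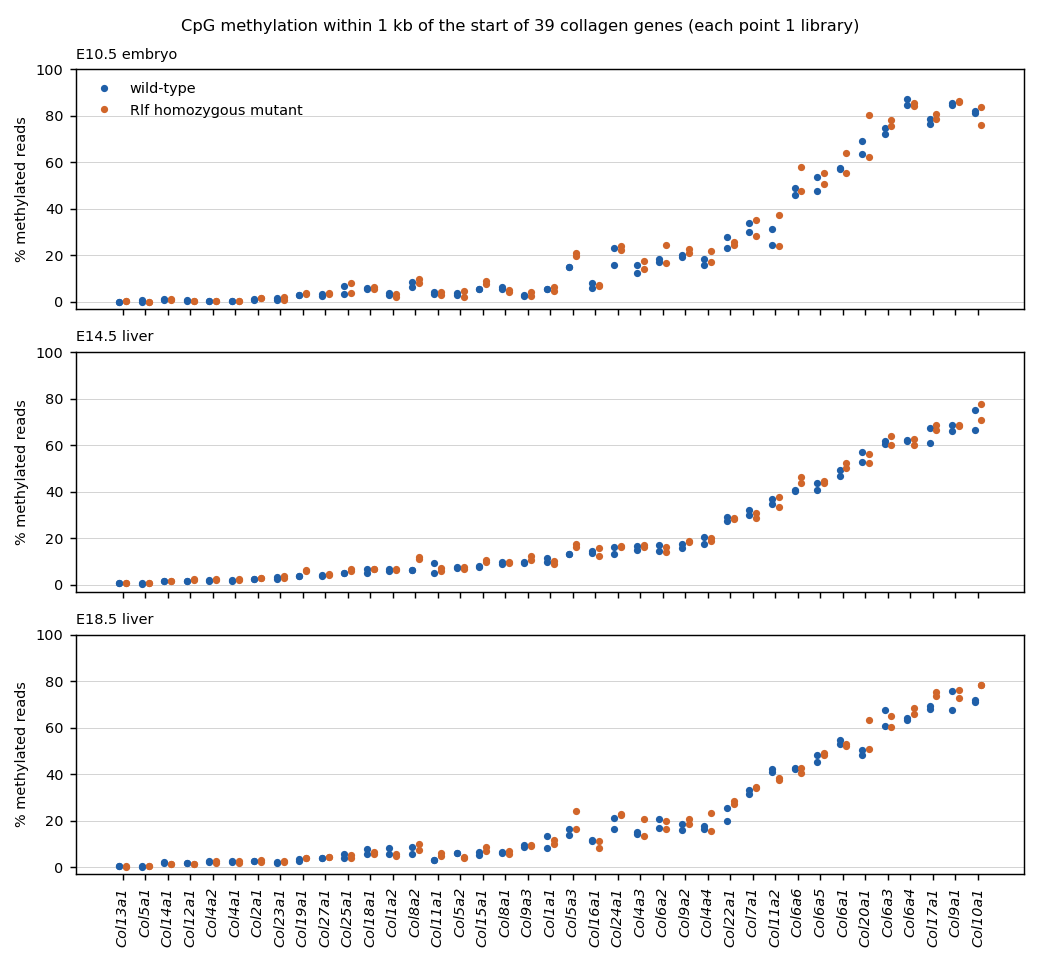
Percent of methylated reads within 1 kb of the start of 39 collagen genes, by stage and genotype; each point is 1 library and genes are ordered by their mean in wild-type E14.5 liver. *Col6a4* has the highest wild-type mean in embryos (85.9%) and stands at 62.0% in E14.5 and 63.8% in E18.5 livers, and the genotypes lie close together at most starts.

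From wild-type E10.5 embryos to E14.5 livers 14 starts were higher and 7 lower, where 17.1% of all starts were called higher and 39.8% lower. The 5 largest negative differences were at highly methylated starts. *Col6a4* fell from 84.6 and 87.1% to 61.7 and 62.4%, *Col9a1* from 85.7 and 84.7% to 66.1 and 68.6%, and *Col17a1*, a transmembrane collagen of epithelia, from 78.6 and 76.4% to 60.7 and 67.5%. *Col6a3* fell from 72.0 and 74.7% to 60.4 and 61.9%. *Col20a1* went from 63.8 and 69.1% to 52.7 and 56.9% over 5 CpGs and did not pass (edgeR adjusted p = 0.136). *Col6a1*, *Col6a5* and *Col10a1* were the other starts called lower, so 4 of the 7 belong to type VI collagen.

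The starts that rose were less methylated in both tissues. *Col11a2*, a cartilage fibril chain, rose from 24.5 and 31.4% to 34.7 and 36.7%, the largest difference (7.79 points). *Col16a1* rose from 8.11 and 6.18% to 13.6 and 14.4%, *Col9a3* from 2.84 and 2.71% to 9.11 and 9.78%, and *Col1a1* from 5.34 and 5.56% to 9.61 and 11.3%. *Col5a2* rose from 3.76 and 3.17% to 7.29 and 7.71%. The others were *Col1a2*, *Col2a1*, *Col4a1*, *Col4a2*, *Col8a1*, *Col12a1*, *Col13a1*, *Col15a1* and *Col23a1*, with rises of 0.461 to 3.35 points. The shared *Col4a1* and *Col4a2* window, whose dense CpGs are shown above, went from 0.398 and 0.423% to 2.06 and 1.57%. Leaving out E10.5 wild-type replicate 2 reduced the lower calls from 7 to 4, and the share of all starts called lower to 35.6%.

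From wild-type E14.5 to E18.5 livers 0 starts were called, where 2.37% of all starts were, and 4 had an unadjusted p under 0.05 (limma called 0). The largest rises in value were at *Col11a2* (34.7 and 36.7 to 42.3 and 40.9%), *Col6a1*, *Col6a5*, *Col17a1* and *Col9a1*, between 4.41 and 5.87 points. The largest falls were at *Col22a1* (27.3 and 29.1 to 25.5 and 19.8%), *Col20a1*, *Col11a1*, *Col8a1* and *Col16a1*, with differences of -5.52 to -2.49 points.

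Between genotypes 1 of the 39 starts was called. In E14.5 liver *Col8a2*, a short-chain collagen of the cornea and endothelium, rose from 6.39 and 6.40% in wild-type to 12 and 10.97% in mutants over 68 CpGs (edgeR adjusted p = 0.0253). Of all starts 1.24% were called higher in that comparison. At E18.5 its values were 5.80 and 8.80% against 10.1 and 7.61%, and at E10.5 8.74 and 6.59% against 10.03 and 8.02%, so the groups overlapped at both. The call was lost without any 1 of the 4 E14.5 libraries and with a window of 500 bp, and limma called *Col19a1* (3.62 and 3.89% against 6.37 and 5.75%) in its place. *Col8a2* transcripts stood at 1.39 ± 0.516 RPKM in wild-type and 1.68 ± 0.264 in mutant livers, and did not pass.

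In E10.5 embryos 0 starts were called and 5 had an unadjusted p under 0.05, where 2.28% of all starts were called. In E18.5 livers 0 were called and 2 had an unadjusted p under 0.05, where 0.808% were called (limma called 0 at both stages). Both mutants lay above both wild-type samples at 10 starts in E10.5 embryos, 13 in E14.5 livers and 11 in E18.5 livers, where 34.6%, 37.2% and 27.6% of all starts did so. Both lay below both wild-type samples at 1, 1 and 5 starts, where 7.65%, 8.70% and 10.8% of all starts did so. The genotype difference was not called as different between E10.5 and E14.5 or between E14.5 and E18.5 at any collagen start (0 and 0, with 2 and 1 at an unadjusted p under 0.05 and 0 by limma), where 0% of all starts were called.

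Gene bodies, the span of the gene without the window at its start, were tested for all 41 genes. From wild-type E10.5 embryos to E14.5 livers 40 of 41 were lower, where 90.3% of all 18085 gene bodies were. The median difference was -19.6 points, against -13.5 over all genes. The only bisulphite wild-type liver labelled male like the embryos, E14.5 replicate 1, was the lowest of its 4 libraries at all 41 genes. The mutant E14.5 replicate 1, also labelled male, was the highest of the same 4 libraries at 34 genes. The part of sex in the lower liver values was not tested. *Col5a2* had the largest difference, from 84.6 to 57.7% on average, or -26.8 points, and *Col1a1* went from 69.1 to 47.1%. *Col9a2*, a short cartilage collagen gene, was the exception at 46.9 and 46.8%. *Col8a2* had the lowest body of the family in every group, at 41.4% in wild-type embryos and 35.2% in wild-type E14.5 livers.

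From wild-type E14.5 to E18.5 livers 36 bodies were higher, where 47.2% of all gene bodies were, with a median difference of 6.26 points against 3.97. The largest was at *Col1a1*, from 47.1 to 55.8%. This count rests on single libraries: it was 0 without E14.5 wild-type replicate 1, 3 without E18.5 wild-type replicate 2 and 19 without E18.5 wild-type replicate 1, where 1.02%, 4.82% and 19.7% of all gene bodies were called higher.

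**Figure D4:**
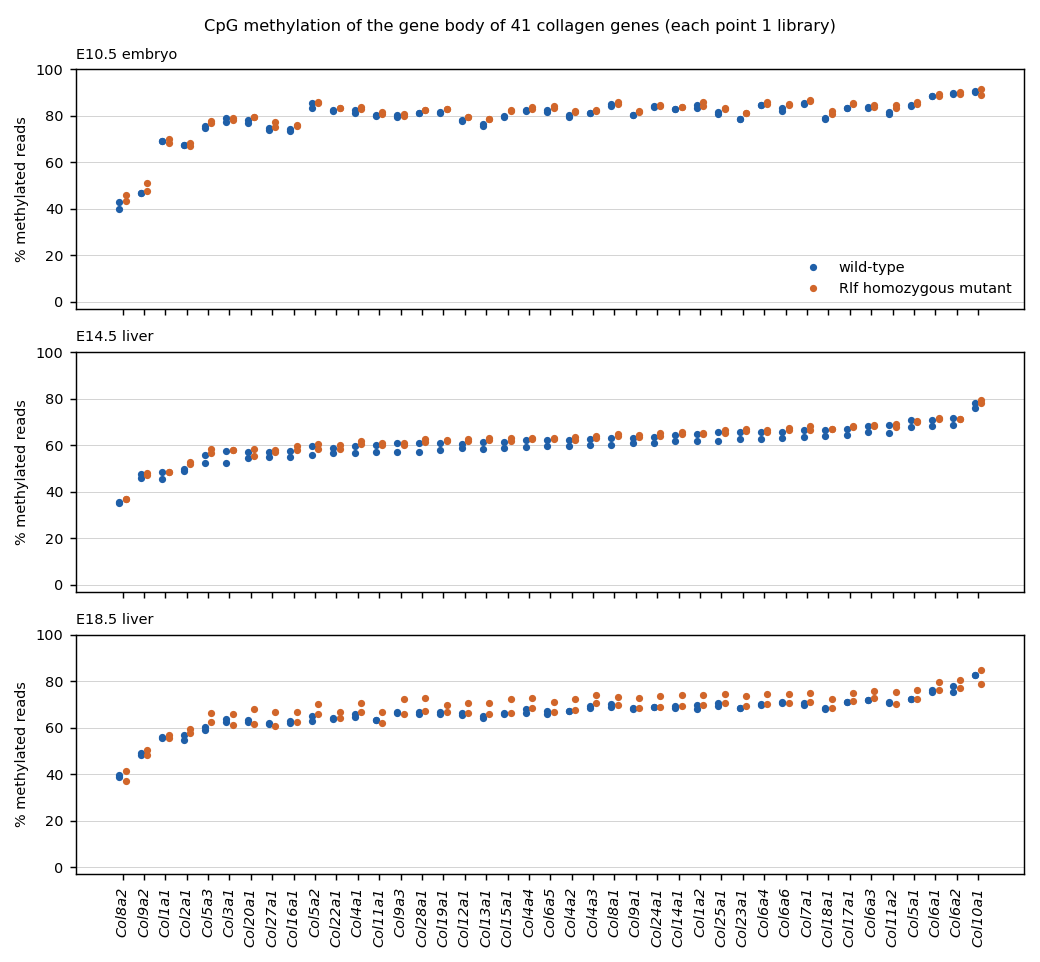
Percent of methylated reads over the gene bodies of 41 collagen genes at each stage; each point is 1 library and genes are ordered by their mean in wild-type E14.5 liver. The wild-type medians are 81.3% in embryos, 60.9% in E14.5 livers and 67.2% in E18.5 livers, where 1 mutant library lies above the other 3 at all 41 genes.

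Between genotypes 0 collagen gene bodies were called at any stage in the fit of all 12 libraries. With each stage fitted alone 9 were called higher in E10.5 embryos, *Col11a2*, *Col13a1*, *Col15a1*, *Col17a1*, *Col18a1*, *Col23a1*, *Col25a1*, *Col4a2* and *Col6a6*, where 13.6% of all gene bodies were called higher in that fit. The counts at an unadjusted p under 0.05 were 4 in E10.5 embryos, 0 in E14.5 livers and 8 in E18.5 livers, limma called 0, and 3.01%, 1.17% and 0.968% of all gene bodies were called. Differences were above 0 at 40, 41 and 40 of the 41 genes, and at 14746, 15816 and 15830 of all 18085 gene bodies. The medians were 1.28, 1.96 and 2.24 points, against 1.09, 1.58 and 1.88 over all genes. Both mutants lay above both wild-type samples at 31, 28 and 18 genes, where 52.9%, 44.2% and 36.9% of all gene bodies did so. Over all autosomal CpG reads both E10.5 mutants also lay above both wild-type embryos, at 73.1 and 73.8 against 70.4 and 71.8%. Both E14.5 mutants did so too, at 60.2 and 59.1 against 56.3 and 58.4%, while the E18.5 groups overlapped. The libraries that stood apart over all reads also stood apart at the collagen gene bodies. E18.5 mutant replicate 1 was the highest of its 4 libraries at 41 genes and E14.5 wild-type replicate 1 the lowest of its 4 at 41 genes. Without E18.5 mutant replicate 2, which leaves the high library alone, 33 bodies were called higher at E18.5, where 47.4% of all gene bodies were. Without either E18.5 mutant 4 were called at E10.5, where 10.8% of all were. The genotype difference was not called as different between stages at any collagen gene body (0 and 0, with 0 and 0 at an unadjusted p under 0.05 and 0 by limma), where 0.0332% and 0.00553% of all bodies were called.

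Tiles of 1 kb located differences within the genes and 5 kb to either side. There were 1796 tiles with at least 8 covered CpGs, and a tile was called at an adjusted p under 0.05 over all 555856 autosomal tiles and a difference over 15 points. In E10.5 embryos 3 collagen tiles were higher in mutants and 1 lower, where 0.417% and 0.00378% of all tiles were called. In E14.5 livers 1 was higher, where 0.155% of all tiles were, and in E18.5 livers 2, where 0.252% were. Median differences over collagen tiles were 1.34, 1.96 and 2.45 points, against 1.14, 1.73 and 2.0 over all tiles.

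The largest was upstream of *Col1a1*, at chr11:94795001-94796000, centred at -2037 bp from the start. Over 13 CpGs methylation was 21.0 and 27.8% in wild-type and 52.2 and 53.0% in mutant embryos, a difference of 28.2 points (edgeR adjusted p = 0.000134). The same tile stood at 34.7 and 41.2% against 48.7 and 43.8% in E14.5 livers and at 42.4 and 52.6% against 49.0 and 49.0% in E18.5 livers, where it did not pass (edgeR adjusted p = 0.729 and 0.938). Both mutants were above both wild-type samples at E14.5, and the E18.5 groups overlapped. In the 250 bases shown above, with 6 of 8 CpGs covered, the values in embryos were 29.7 and 37.5% against 61.0 and 62.5%. RNA from embryos was not measured, so the level of *Col1a1* there is unknown.

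**Figure D5:**
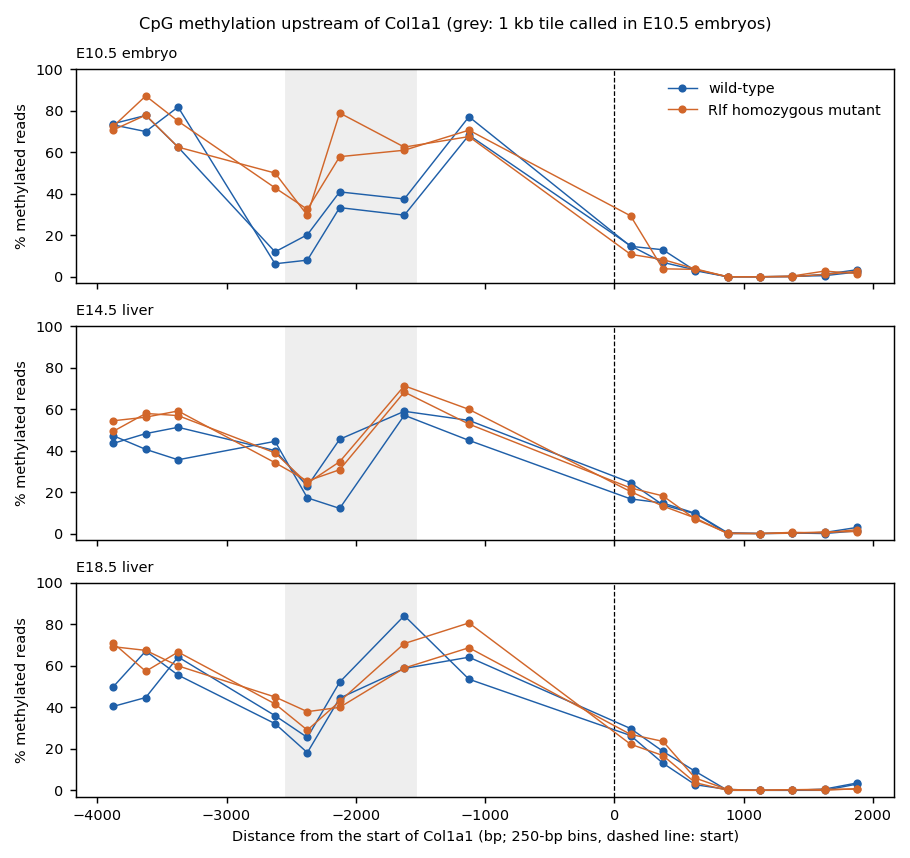
Percent of methylated reads in 250-bp bins around the start of *Col1a1* in each library, by distance from the start, for the 3 stages; the grey band is the tile called in E10.5 embryos. In embryos both mutants (52.2 and 53.0% over the tile) lie above both wild-type samples (21.0 and 27.8%), and over the tile the E14.5 mutants (48.7 and 43.8%) also lie above the wild-type livers (34.7 and 41.2%), while the E18.5 groups overlap.

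The other tiles called higher in embryos were intronic. In *Col6a6*, a type VI chain, chr9:105721001-105722000 stood at 49.9 and 61.3% in wild-type and 72.6 and 75.6% in mutant embryos over 35 CpGs (18.52 points). Its values were 33.7 and 40.4% against 50.3 and 44.0% in E14.5 livers and 50.3 and 48.7% against 56.4 and 55.3% in E18.5 livers, so both mutants were above both wild-type samples there too, without passing (edgeR adjusted p = 0.389 and 0.559). In *Col23a1*, a transmembrane collagen, chr11:51357001-51358000 stood at 50.9 and 39.7% against 66.7 and 64.4% over 8 CpGs (20.2 points, edgeR adjusted p = 0.0326). At E14.5 the *Col23a1* tile stood at 46.0 and 46.2% against 53.5 and 52.5%, also without overlap, and at E18.5 its groups overlapped. The tile called lower was in an intron of *Col9a1*, a cartilage FACIT chain, at chr1:24226001-24227000. It stood at 67.9 and 73.5% in wild-type and 49.4 and 47.2% in mutant embryos over 10 CpGs, a difference of -22.4 points. In E14.5 livers its values were 56.5 and 53.0% against 63.3 and 58.0%, the other direction, and in E18.5 livers 69.4 and 60.9% against 57.6 and 67.1%, where the groups overlapped. The difference between these stages was 28.4 points and did not pass over all tiles (edgeR adjusted p = 0.412).

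In E14.5 livers the tile called was in an intron of *Col19a1*, chr1:24592001-24593000, centred 1810 bp after the start. It stood at 46.8 and 51.1% in wild-type and 68.3 and 63.8% in mutant livers over 20 CpGs (17.1 points, edgeR adjusted p = 0.00342). In embryos it was 80.2 and 79.5% against 85.6 and 88.4%, and in E18.5 livers 64.0 and 61.0% against 69.9 and 67.4%, so both mutants were above both wild-type samples at each stage. Without E14.5 wild-type replicate 1, or without E14.5 mutant replicate 1, it was no longer called (0 in place of 1). The gene had 1 count or fewer in each E14.5 liver.

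In E18.5 livers a tile of *Col23a1* that includes an exon, chr11:51341001-51342000, stood at 57.7 and 51.1% in wild-type and 73.2 and 66.6% in mutant livers over 16 CpGs (15.5 points, edgeR adjusted p = 0.0337). Both mutants were above both wild-type samples at that tile in embryos and E14.5 livers as well, by 11.6 and 6.50 points. A tile downstream of *Col16a1*, a FACIT chain, chr4:129778001-129779000, stood at 25.1 and 22.6% against 40.8 and 42.8% over 8 CpGs (17.9 points, edgeR adjusted p = 0.0362). In embryos that tile stood at 16.4 and 21.5% against 19.9 and 28.7%, which overlap, and in E14.5 livers at 24.6 and 20.7% against 25.9 and 27.98%, with both mutants above. The count of called tiles at E18.5 fell from 2 to 1 without mutant replicate 1, the library with high methylation, and also to 1 without wild-type replicate 2.

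An intronic tile of *Col4a1*, chr8:11279001-11280000, passed the test in embryos and in E14.5 livers but not the minimum difference, and is given because it passed at 2 stages. It stood at 31.7 and 29.9% in wild-type and 49.2 and 42.0% in mutant E14.5 livers over 31 CpGs (14.8 points), and at 60.9 and 78.8% against 82.3 and 80.5% in embryos. A tile in *Col5a3* passed in embryos (15.1 and 16.5% against 27.1 and 28.01%) and E18.5 livers (9.48 and 10.7% against 23.8 and 15.8%), also without the minimum difference. Tests of whether the genotype difference at a tile differed between stages, chosen after seeing the data, called 0 collagen tiles, against 22, 1 and 18 of all tiles for the 3 pairs of stages.

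No gene with a called start or tile had a called transcript, but with 1 transcript called among 28 tested genes an overlap was unlikely in any case. *Col6a3*, the gene called in expression, had a start at 60.4 and 61.9% in wild-type and 63.8 and 60.0% in mutant E14.5 livers and 0 called tiles. *Col1a1*, *Col9a1*, *Col16a1*, *Col19a1*, *Col23a1*, *Col6a6* and *Col8a2* were not called in expression, and *Col9a1* and *Col19a1* were among the genes under the filter. Expression was measured at E14.5 alone, so tiles called in embryos or at E18.5 have no expression value of their own stage.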

How the data were processed

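Per the labels and the study's methods, the authors aligned bisulphite reads with Bismark and Bowtie2 to mm9 carrying FVB substitutions, and deposited methylated and unmethylated read counts per CpG. The percent methylation the authors deposited beside them was not used, and percentages were recomputed from the counts. They aligned RNA-seq reads with TopHat and deposited HTSeq read counts per gene, counted without strand on Ensembl 67. Both kinds of count were used as deposited. Expression was tested with edgeR 4.0.16 (R 4.3.3) by the quasi-likelihood test with TMM scaling, genes kept by filterByExpr and Benjamini-Hochberg adjustment over all genes tested. Methylation was tested with the same tool on read counts summed per region, taking CpGs that every one of the 12 libraries covered by 6 reads or more, with the 6 groups in 1 fit and Ensembl 65 positions. RPKM was computed from the deposited counts and summed exon lengths. limma 3.58.1 and DESeq2 1.42.0 served as alternatives. Named genes were *Rlf*, called members, the 10 most expressed, the 5 largest start changes each way between wild-type stages, members with a called tile, and in each list the called genes and the 3 most expressed; other named genes were added after their values were seen. The members and lists were chosen with earlier results of these data known. In RNA-seq, deviations from the genotype mean correlated between same-numbered livers (r = 0.13, 0.23 and 0.41 over 14183 genes). Replicate number was therefore also fitted as a block. Deviations cancel within each genotype, so a shift shared by the 2 replicate 3 livers alone would raise r at the other numbers. No r was computed between livers of different number, so these values do not show that the numbers pair livers. The labels do not say that the numbers pair livers, and same-numbered livers also share their sex label. The main fit used genotype alone. p-values measure the spread between the samples given as replicates.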

Additional observations from a re-analysis of the deposited data

How the results depend on the processing

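Of the recomputed counts of called features, 507 stayed within 1.5 times the reported count and 41 did not. Many of these counts were 0 in the main fit and stayed 0, so the split says little about the features that were called. For collagen expression the count of higher genes was 2 with no filter on low counts, 3 with the replicate block and 0 to 2 when 1 liver was left out; over the lists it was 19, 16 and 0 to 6, with 0 to 1 lower, and over all genes 317 with no filter and 263 with the block, against 99. With 1 liver left out, log2 fold changes that were not called changed sign, running from -0.0262 to 0.247 for *Col3a1*, -0.1498 to 0.3519 for *Col1a1*, -0.0071 to 0.1295 for *Col4a1*, -0.048 to 0.4279 for *Col1a2*, -0.0732 to 0.1532 for *Col5a1*, -0.0293 to 0.1005 for *Col6a1* and -0.0204 to 0.3262 for *Col5a2*, each lowest without mutant replicate 3. For starts, the E14.5 count of higher genes was 2 with each stage fitted alone and 0 within 500 bp, and 0 to 1 with 1 library left out, as was the E10.5 count of lower genes. The wild-type E10.5 to E14.5 count of lower starts was 4 within 500 bp and 4 to 9 with 1 library left out, and the E14.5 to E18.5 count of lower starts was 1 at a coverage minimum of 10. For gene bodies, the E10.5 genotype count was 9 with each stage alone and 0 to 4 with 1 library left out, the E18.5 count 0 to 33, and the wild-type E14.5 to E18.5 count 0 to 40. Called tiles at E10.5, E14.5 and E18.5 were 9, 2 and 3 without the minimum difference, 2, 2 and 1 at a coverage minimum of 10, and 3 to 4, 0 to 1 and 1 to 2 with 1 library left out. The causes were not tested. Deviations of same-numbered bisulphite libraries at starts had r = 0.064, -0.033 and -0.032 at E10.5, E14.5 and E18.5. With 2 libraries per group this cannot show whether the numbers pair samples. The replicate block changed no count of collagen starts or bodies called between genotypes. Over all genes it did move counts, such as E10.5 gene bodies called higher, from 542 to 346 of 18085. E10.5 and E18.5 libraries held 15.1 to 17.2 reads per CpG and E14.5 libraries 29.7 to 33.5, so values at E10.5 and E18.5 rest on fewer reads.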
